A study of Mus musculus with 16 samples.

Results

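The CC chemokines are small secreted proteins, named for a pair of adjacent cysteines, that draw leukocytes into tissue along a gradient read by CC receptors on the cell surface. The account below follows 10 listed ligand genes (Ccl2, Ccl3, Ccl4, Ccl5, Ccl6, Ccl7, Ccl8, Ccl9, Ccl11 and Ccl12), found by gene symbol among the 55278 symbols of the deposited tables. All 10 were present in the tables, and all 10 passed the filter on low counts. In the heart, Ccl2 and its relatives are known for recruiting CCR2-bearing monocytes after injury or endotoxin, whereas Ccl6 and Ccl9, which are rodent ligands of CCR1, are known as products of resting myeloid cells.

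Whole-heart RNA came from male mice on a C57BL/6J background, aged 8 to 12 weeks, in 4 groups of 4 mice. The PPARα-deficient LPS group lacked the nuclear receptor PPARα in cardiomyocytes and received lipopolysaccharide (LPS, a bacterial endotoxin) at 5 mg/kg into the peritoneum. The PPARα-deficient PBS group had the same genotype and received phosphate-buffered saline (PBS). The Ppara-flox LPS group carried the floxed Ppara allele alone and received the same LPS dose, and the Ppara-flox PBS group received PBS. LPS-treated hearts were collected after 12 h. The labels name no Cre driver, and no group carried Cre without the deletion, so effects of Cre and of PPARα loss cannot be told apart. Whether the 4 mice of a group shared litters or cages is not given in the labels, and p-values measure the spread between these samples.

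Estimated counts summed to 65569134 to 75436023 per library. Because low values piled up at multiples of 4, a read pair was taken to add about 4, which puts the libraries at 16392284 to 18859006 pairs. Levels are given in CPM (counts scaled to the library total with TMM, edgeR's between-library factors), fold changes are log2 values ± their standard error (SE, 4 libraries a group), and a gene was called at an adjusted p under 0.05 over all 18713 genes tested by edgeR's quasi-likelihood test. Ppara averaged 7.98 ± 3.38 CPM in PPARα-deficient LPS hearts, 14.6 ± 2.58 CPM in PPARα-deficient PBS hearts, 11.3 ± 3.31 CPM in Ppara-flox LPS hearts and 50.2 ± 9.86 CPM in Ppara-flox PBS hearts (SD, n = 4 each). The lower level in PPARα-deficient hearts passed under PBS (-1.79 ± 0.28, edgeR adjusted p = 0.00287) and not after LPS (-0.50 ± 0.27, edgeR adjusted p = 0.651). The 9 cardiomyocyte markers examined summed to at least 36000 CPM in each library. With LPS 6 of them fell in PPARα-deficient hearts and 8 in Ppara-flox hearts, and 0 rose. Their sums were 40310 to 45650 CPM in PPARα-deficient LPS hearts, against 62800 to 68500 CPM in PPARα-deficient PBS hearts. In Ppara-flox LPS hearts they were 36000 to 41850 CPM, against 66630 to 72080 CPM in Ppara-flox PBS hearts. Their part in the ligand results was not tested. The 6 islet markers, examined because the labels' extraction text speaks of islets, had 0 counts in all 16 libraries. In bulk tissue, fewer cells of a type and less RNA per cell cannot be told apart. Header numbers ran higher in the LPS tables than in the PBS tables, so LPS and the order of numbering cannot be told apart.

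All 10 genes lie on chromosome 11 of GRCm38 and are annotated as protein coding in GENCODE vM21. They form a pair of clusters. Ccl2 (82035571 to 82037453), Ccl7, Ccl11, Ccl12 and Ccl8 (82115185 to 82116799), all on the plus strand, fill 81.2 kb. After a gap of 1409.0 kb come Ccl5 (83525778 to 83530518), Ccl9 (83572919 to 83578636), Ccl6 (83587882 to 83593087) and Ccl3 (83647844 to 83649355) on the minus strand and Ccl4 (83662584 to 83664683) on the plus strand. That distal cluster spans 138.9 kb. No window of 50 bases in the transcripts of 9 members occurred in a transcript of another gene. In Ccl9, 59 of 2996 such windows (1.97%) did, none of them shared with another member. Ccl6 overlaps E230016K23Rik on the opposite strand, which had 0 counts in all 8 LPS libraries and at most 13 in a PBS library. Ccl2 overlaps Gm17268, which had 0 counts throughout.

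The sequences upstream of the start sites are shown for a pair of neighbours in each cluster, because Ccl6 and Ccl9 share a locus and Ccl6 alone of them was called with LPS, while Ccl12 and Ccl8 lie next to each other and were both low in PBS hearts. RefSeq's promoter table (GRCm38.p6) held 5 members, the fifth being Ccl3. Each run holds the 250 bases before the start site, 5′ to 3′ on the gene's strand, with motif matches in capitals.
Ccl6, chr11:83593088-83593337, minus strand: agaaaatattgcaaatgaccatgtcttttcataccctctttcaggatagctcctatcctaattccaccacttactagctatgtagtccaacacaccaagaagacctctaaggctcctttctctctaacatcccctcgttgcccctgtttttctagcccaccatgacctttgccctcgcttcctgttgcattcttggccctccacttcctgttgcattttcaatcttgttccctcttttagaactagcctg
Ccl9, chr11:83578637-83578886, minus strand: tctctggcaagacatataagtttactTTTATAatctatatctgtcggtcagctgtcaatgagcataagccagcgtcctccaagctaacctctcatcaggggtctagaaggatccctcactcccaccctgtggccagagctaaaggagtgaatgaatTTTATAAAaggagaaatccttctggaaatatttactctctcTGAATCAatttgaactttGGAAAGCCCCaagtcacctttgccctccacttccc
Ccl12, chr11:82101595-82101844, plus strand: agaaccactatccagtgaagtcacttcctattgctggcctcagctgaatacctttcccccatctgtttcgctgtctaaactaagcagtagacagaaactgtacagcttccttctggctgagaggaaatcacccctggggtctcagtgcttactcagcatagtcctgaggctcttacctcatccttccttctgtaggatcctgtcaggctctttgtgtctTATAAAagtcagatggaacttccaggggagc
Ccl8, chr11:82114935-82115184, plus strand: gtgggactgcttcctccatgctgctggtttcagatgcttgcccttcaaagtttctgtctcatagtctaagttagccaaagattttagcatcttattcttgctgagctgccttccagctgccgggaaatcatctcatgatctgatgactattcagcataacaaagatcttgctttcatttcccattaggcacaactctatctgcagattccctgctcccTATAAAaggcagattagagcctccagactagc
Both strands were searched for an NF-kB motif, the core of the interferon-stimulated response element, the activator protein motif TGANTCA, the C/EBP motif TTGCNNAA, the PPAR element of direct repeats and the TATA box TATAAA. Ccl12 and Ccl8 each held the TATA box, from 31 and 32 bases before the start site, a motif present in 12.4% of 32851 promoter windows of this length. Ccl9 held an NF-kB match (7.25% of all windows), the TGANTCA motif (6.75% of all windows) and TATA box matches farther upstream, of which a pair on opposite strands overlap. None of the motifs occurred in these 250 bases of Ccl6 or Ccl3, which says nothing about binding elsewhere. The share of all windows was 2.98% for the interferon element, 9.56% for TTGCNNAA and 0.0335% for the PPAR element.

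LPS raised 5 of the 10 ligands in PPARα-deficient hearts and 7 of the 10 in Ppara-flox hearts, and lowered 1, Ccl6, in each. Over all genes tested, 37.7% were called in PPARα-deficient hearts (19.4% higher, 18.3% lower) and 39.3% in Ppara-flox hearts (20.2% higher, 19.1% lower). The median log2 fold change of the 10 ligands was 1.47 in PPARα-deficient hearts and 2.41 in Ppara-flox hearts, beside 0.01 over all genes in both. LPS and PBS libraries did not overlap for 6 of the 10 in PPARα-deficient hearts (37.9% of all genes) and for 7 of the 10 in Ppara-flox hearts (37.6% of all genes). Ccl2, Ccl3, Ccl5, Ccl7 and Ccl11 rose in both genotypes, Ccl8 and Ccl12 passed in Ppara-flox hearts, and Ccl4 and Ccl9 passed in neither.

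**Figure D1:**
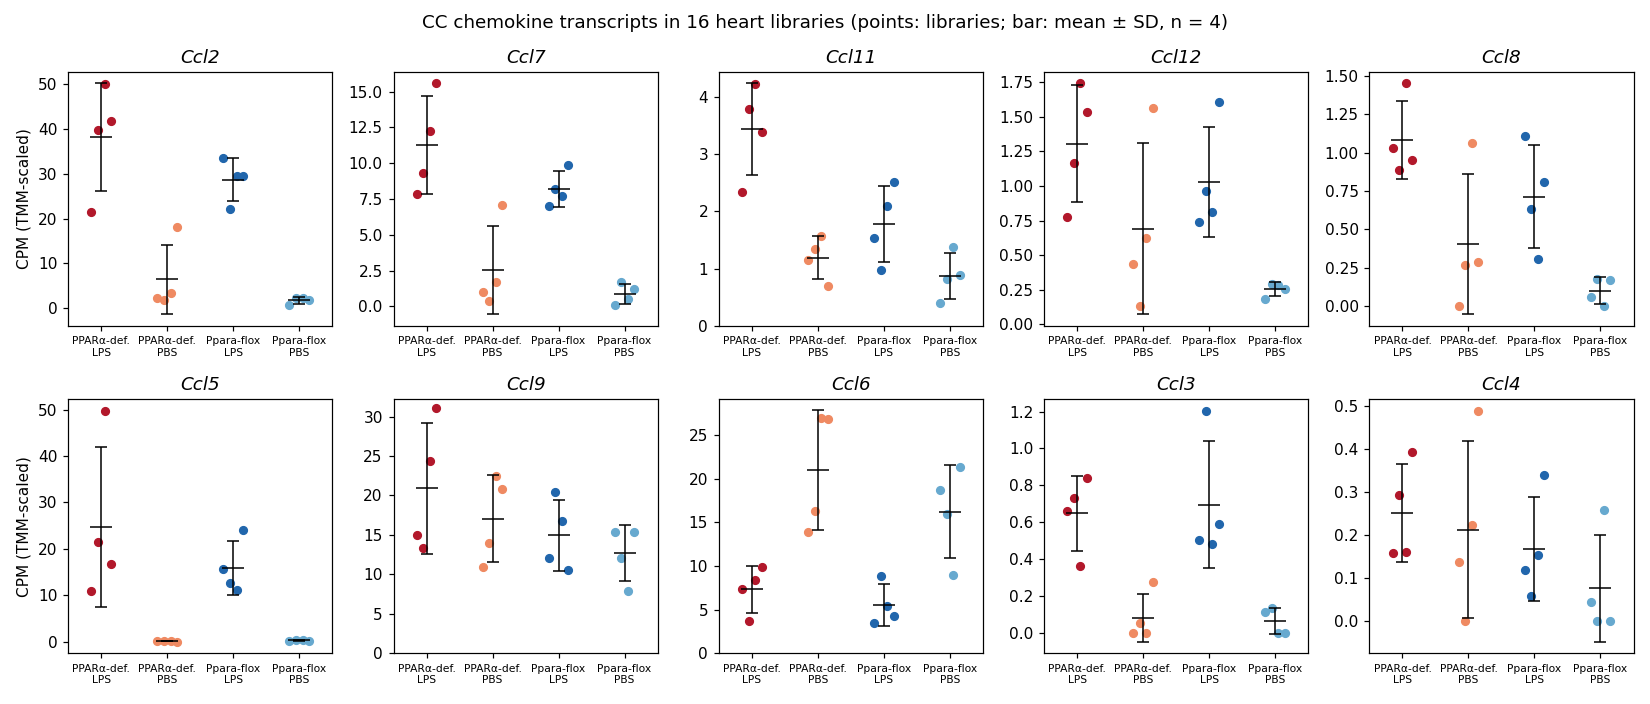
CPM of each ligand (y axis, linear, TMM-scaled) in the 4 groups (x axis); points are single libraries and bars the mean ± SD, n = 4. Ccl5 is near 0 in all PBS libraries, Ccl6 is lower in LPS than in PBS libraries, and 1 PPARα-deficient PBS library stands above the other 3 for Ccl2 and Ccl7.

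Ccl2, the main ligand of the monocyte receptor CCR2, stood at 21.6, 39.7, 49.96 and 41.7 CPM in PPARα-deficient LPS hearts, against 2.38, 1.94, 3.35 and 18.1 CPM in PPARα-deficient PBS hearts. Its values were 33.6, 22.1, 29.5 and 29.5 CPM in Ppara-flox LPS hearts, against 0.612, 2.28, 2.35 and 1.94 CPM in Ppara-flox PBS hearts. LPS and PBS libraries did not overlap in either genotype, although PPARα-deficient PBS replicate 4 came close to the lowest LPS library. Ccl2 rose by 2.57 ± 0.58 in PPARα-deficient hearts (5.95-fold, edgeR adjusted p = 0.00217) and by 4.00 ± 0.63 in Ppara-flox hearts (15.95-fold, edgeR adjusted p = 8.97e-05). Without PPARα-deficient PBS replicate 4 the rise in PPARα-deficient hearts was 3.90 (edgeR adjusted p = 2.06e-06).

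Ccl7, which also signals through CCR2 and lies next to Ccl2, followed it. It stood at 7.88, 9.31, 12.3 and 15.6 CPM in PPARα-deficient LPS hearts, against 1.00, 0.363, 1.69 and 7.07 CPM in PPARα-deficient PBS hearts. In Ppara-flox LPS hearts it stood at 7.01, 8.18, 7.70 and 9.90 CPM, against 0.0711, 1.68, 0.517 and 1.22 CPM in Ppara-flox PBS hearts. Again no LPS library overlapped a PBS library of its genotype, and the same PPARα-deficient PBS library was the highest of its group. Ccl7 rose by 2.16 ± 0.72 in PPARα-deficient hearts (edgeR adjusted p = 0.0253) and by 3.23 ± 0.76 in Ppara-flox hearts (edgeR adjusted p = 0.00283). The call in PPARα-deficient hearts was lost without PBS replicate 1 (adjusted p = 0.0725), PBS replicate 2 (0.0535), PBS replicate 3 (0.0676) or LPS replicate 4 (0.0579), whereas without PBS replicate 4 the rise was 3.47 (edgeR adjusted p = 0.000757). Among the members, Ccl2 and Ccl7 were the nearest pair in profile over the 16 libraries, with a root mean square distance of 0.61 on the centred log2 CPM scale.

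Ccl12, a rodent CCR2 ligand, and Ccl8, which in mouse is known as a ligand of CCR8, were scarcer. Ccl12 had 0.779 to 1.74 CPM in PPARα-deficient LPS hearts, against 0.135 to 1.57 CPM in PPARα-deficient PBS hearts, and these ranges overlapped. In Ppara-flox hearts it had 0.741 to 1.61 CPM after LPS, against 0.185 to 0.292 CPM after PBS, with no overlap. Ccl12 rose by 2.01 ± 0.54 in Ppara-flox hearts (edgeR adjusted p = 0.00734). Its change in PPARα-deficient hearts was 0.92 ± 0.52 (edgeR adjusted p = 0.18), or 1.71 without PBS replicate 4 (edgeR adjusted p = 0.0108). Ccl8 had 61 to 100 estimated counts per library in PPARα-deficient LPS hearts, against 0 to 77 in PPARα-deficient PBS hearts. Ppara-flox LPS hearts had 24 to 75 estimated counts of Ccl8, against 0 to 12 in Ppara-flox PBS hearts. It passed in Ppara-flox hearts (2.82 ± 0.97, edgeR adjusted p = 0.0287) but not in PPARα-deficient hearts (1.41 ± 0.88, edgeR adjusted p = 0.231). The Ccl8 call was lost without Ppara-flox PBS replicate 1 (adjusted p = 0.0723), PBS replicate 3 (0.0607), LPS replicate 1 (0.0698) or LPS replicate 4 (0.0506). By limma-voom, chosen after seeing the data, both genes passed in PPARα-deficient hearts too (Ccl12 adjusted p = 0.0451, Ccl8 adjusted p = 0.0304).

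Ccl11, or eotaxin, draws eosinophils through CCR3. It had 2.34, 3.79, 4.23 and 3.40 CPM in PPARα-deficient LPS hearts, against 1.16, 1.35, 1.58 and 0.689 CPM in PPARα-deficient PBS hearts. Ppara-flox LPS hearts had 1.54, 0.975, 2.09 and 2.51 CPM, against 0.398, 0.819, 1.37 and 0.882 CPM in Ppara-flox PBS hearts. The groups were apart in PPARα-deficient hearts and overlapped in Ppara-flox hearts. The rise was 1.53 ± 0.36 in PPARα-deficient hearts (edgeR adjusted p = 0.00317) and 1.03 ± 0.37 in Ppara-flox hearts (edgeR adjusted p = 0.0331). In Ppara-flox hearts the call was lost without PBS replicate 1 (adjusted p = 0.0925), PBS replicate 2 (0.0693), PBS replicate 4 (0.0616), LPS replicate 3 (0.0783) or LPS replicate 4 (0.112), without the filter (0.053), by limma-voom (0.0508) and in a fit to those 8 libraries (0.0681). Its receptor gene Ccr3 had a count in 1 library of 16, with 12 estimated counts. The 10 eosinophil and mast cell markers summed to 1.17 to 2.86 CPM in PPARα-deficient LPS hearts, against 0.934 to 3.33 CPM in PPARα-deficient PBS hearts, and to 0.354 to 1.19 CPM in Ppara-flox LPS hearts, against 1.58 to 3.36 CPM in Ppara-flox PBS hearts. Siglecf, Epx, Ear1 and Ear6 were at 0 in both PPARα-deficient groups, Prg2, Ear1 and Ear6 in Ppara-flox LPS hearts, and Siglecf, Prg2, Epx, Ear1 and Ear6 in Ppara-flox PBS hearts. Of the 5 that passed the filter, 0 were called in PPARα-deficient hearts (0 also at an unadjusted p under 0.05 by edgeR) and 2, the mast cell protease genes Mcpt4 and Tpsb2, fell in Ppara-flox hearts. The eosinophil gene Ear2 was at 1.75 and 2.10 in PPARα-deficient and Ppara-flox hearts and did not pass. Their part in the Ccl11 result was not tested.

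Ccl5 (RANTES), a ligand of CCR1 among others that attracts T cells and monocytes, had the highest log2 fold change of the 10 in both genotypes. It stood at 10.98, 21.4, 49.8 and 16.8 CPM in PPARα-deficient LPS hearts, against 0.179, 0.202, 0.0692 and 0 CPM in PPARα-deficient PBS hearts. In Ppara-flox LPS hearts it stood at 15.7, 12.6, 11.1 and 23.98 CPM, against 0.185, 0.307, 0.323 and 0.0712 CPM in Ppara-flox PBS hearts. Every LPS library exceeded every PBS library by a wide margin, and PPARα-deficient LPS replicate 3 was the highest of the 16. Ccl5 rose by 7.74 ± 0.66 in PPARα-deficient hearts (edgeR adjusted p = 1.52e-07, and 7.15 without LPS replicate 3) and by 6.14 ± 0.60 in Ppara-flox hearts (70.7-fold, edgeR adjusted p = 5.98e-07). The 12 T and NK cell markers summed to 2.42 to 9.01 CPM in PPARα-deficient LPS hearts, against 1.53 to 2.90 CPM in PPARα-deficient PBS hearts, and to 1.78 to 4.94 CPM in Ppara-flox LPS hearts, against 1.17 to 3.16 CPM in Ppara-flox PBS hearts. Of the 8 that passed the filter, 1 was called in PPARα-deficient hearts, where 5 had an unadjusted edgeR p under 0.05, and 0 in Ppara-flox hearts, where 1 did. The one called was Gzma, a granule protease of cytotoxic cells, which rose by 3.37 (edgeR adjusted p = 0.00634). Of the other 4 in PPARα-deficient hearts, Cd8a, Lck and Nkg7 were at 2.71, 1.61 and 3.75, and Cd4 was at -0.83. The one in Ppara-flox hearts was Cd4, at -0.90. Their part in the Ccl5 result was not tested.

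Ccl3 and Ccl4 encode macrophage inflammatory proteins, of which Ccl3 acts on CCR1. Ccl3 had 50, 50, 25 and 60 estimated counts in PPARα-deficient LPS hearts, against 0, 4, 0 and 19 in PPARα-deficient PBS hearts. It had 34, 84, 38 and 45 in Ppara-flox LPS hearts, against 8, 9, 0 and 0 in Ppara-flox PBS hearts. Ccl3 rose by 2.97 ± 1.10 in PPARα-deficient hearts (edgeR adjusted p = 0.042) and by 3.48 ± 1.13 in Ppara-flox hearts (edgeR adjusted p = 0.0215). In PPARα-deficient hearts the call was lost without PBS replicate 1 (adjusted p = 0.0878), PBS replicate 2 (0.0925), PBS replicate 3 (0.0878), LPS replicate 1 (0.0676), LPS replicate 2 (0.0737) or LPS replicate 4 (0.0774), and without the filter (0.0685), while without PBS replicate 4 the rise was 5.03. In Ppara-flox hearts the call was lost without PBS replicate 3 (0.0517), PBS replicate 4 (0.0508) or LPS replicate 2 (0.0607), and without PBS replicate 2 the rise was 4.15. Ccl4 stayed at 11 to 28 estimated counts in PPARα-deficient LPS hearts, against 0 to 34 in PPARα-deficient PBS hearts, and at 4 to 26 in Ppara-flox LPS hearts, against 0 to 20 in Ppara-flox PBS hearts. These ranges overlap in both genotypes, and a change of Ccl4 was not detectable at this depth (0.24 ± 1.14 in PPARα-deficient and 1.12 ± 1.19 in Ppara-flox hearts, edgeR adjusted p = 0.894 and 0.502). Ppara-flox PBS replicate 3 held 20 of the 23 estimated counts of its group. Leaving out 1 library gave 0.51 to 3.39 in Ppara-flox hearts, the highest without that replicate (edgeR adjusted p = 0.0701).

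Ccl6 was the ligand that fell. It had 7.32, 3.63, 8.42 and 9.89 CPM in PPARα-deficient LPS hearts, against 13.9, 16.3, 27.0 and 26.9 CPM in PPARα-deficient PBS hearts. Ppara-flox LPS hearts had 3.42, 8.91, 5.39 and 4.28 CPM, against 18.7, 15.9, 8.92 and 21.3 CPM in Ppara-flox PBS hearts. All LPS libraries were below all PBS libraries of their genotype, by a narrow gap in Ppara-flox hearts, where LPS replicate 2 and PBS replicate 3 nearly met. Ccl6 fell by 1.52 ± 0.35 in PPARα-deficient hearts (2.87-fold lower, edgeR adjusted p = 0.00244) and by 1.56 ± 0.35 in Ppara-flox hearts (2.95-fold lower, edgeR adjusted p = 0.00203). The call held without each library in turn, with adjusted p at most 0.00919 in PPARα-deficient and 0.00871 in Ppara-flox hearts. Ccl6 was singled out with its fall in these same libraries known, so these values describe the fall and are not independent support for it.

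Ccl9, the CCR1 ligand next door to Ccl6, was not called in either genotype. It had 14.9, 13.4, 24.4 and 31.1 CPM in PPARα-deficient LPS hearts, against 10.96, 13.9, 22.5 and 20.8 CPM in PPARα-deficient PBS hearts. Ppara-flox LPS hearts had 12.0, 20.4, 16.8 and 10.6 CPM, against 15.3, 12.1, 7.91 and 15.4 CPM in Ppara-flox PBS hearts. The ranges overlap in both genotypes, and the changes of 0.30 ± 0.30 and 0.24 ± 0.30 did not pass (edgeR adjusted p = 0.482 in PPARα-deficient and 0.577 in Ppara-flox hearts). Their proportion differed between LPS and PBS libraries. The ratio of Ccl6 to Ccl9 CPM was 0.272 to 0.491 in PPARα-deficient LPS hearts, against 1.17 to 1.29 in PPARα-deficient PBS hearts, and 0.284 to 0.436 in Ppara-flox LPS hearts, against 1.13 to 1.39 in Ppara-flox PBS hearts. The ratio was thus below 0.5 in the 8 LPS libraries and above 1 in the 8 PBS libraries. It was computed with the Ccl6 fall known and is given as a description.

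**Figure D2:**
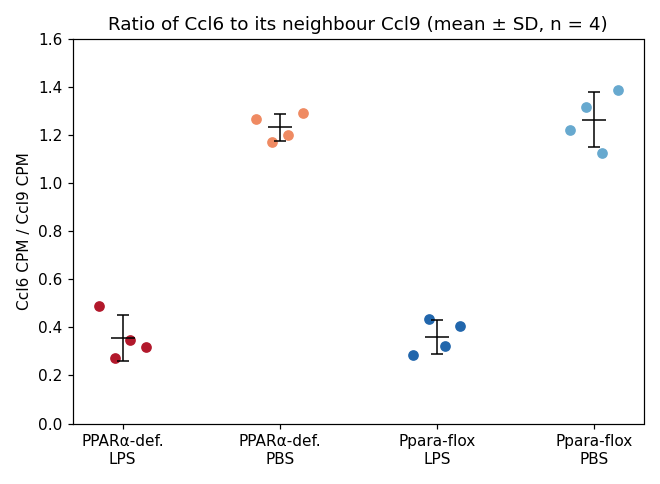
Ratio of Ccl6 CPM to Ccl9 CPM (y axis) in each library by group (x axis); points are libraries, bars the mean ± SD, n = 4. LPS libraries lie between 0.272 and 0.491 and PBS libraries between 1.13 and 1.39, with the genotypes side by side.

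Per length, the order of the ligands turned over with LPS. In CPM per kb of exon, Ccl2 led in PPARα-deficient LPS hearts (33.6 ± 10.5), followed by Ccl5 (25.8 ± 17.9), Ccl7 (14.1 ± 4.25), Ccl9 (6.87 ± 2.73) and Ccl6 (4.08 ± 1.49). Ccl6 led in PPARα-deficient PBS hearts (11.7 ± 3.85), followed by Ccl2 (5.66 ± 6.84), Ccl9 (5.60 ± 1.81) and Ccl7 (3.16 ± 3.84). The first 5 in Ppara-flox LPS hearts were Ccl2 (25.2 ± 4.22), Ccl5 (16.5 ± 5.98), Ccl7 (10.2 ± 1.54), Ccl9 (4.91 ± 1.48) and Ccl6 (3.07 ± 1.34). In Ppara-flox PBS hearts Ccl6 (9.03 ± 2.98) and Ccl9 (4.16 ± 1.16) stood ahead of Ccl2 (1.58 ± 0.71) and Ccl7 (1.09 ± 0.90), all as SD with n = 4. Most neighbours in these orders overlapped between libraries. The exceptions were Ccl8 above Ccl3 in PPARα-deficient LPS hearts, Ccl7 above Ccl9 and Ccl3 above Ccl4 in Ppara-flox LPS hearts, and Ccl9 above Ccl2 and Ccl12 above Ccl5 in Ppara-flox PBS hearts.

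The summed level of the 10 ligands was 93.3 ± 32.7 CPM per kb in PPARα-deficient LPS hearts, 29.8 ± 16.2 in PPARα-deficient PBS hearts, 66.1 ± 8.04 in Ppara-flox LPS hearts and 17.8 ± 3.80 in Ppara-flox PBS hearts. Ccl6 and Ccl9 together made up 7.64% to 16.1% of that sum in PPARα-deficient LPS libraries, against 42.2% to 75.4% in PPARα-deficient PBS libraries. Their share was 7.58% to 19.4% in Ppara-flox LPS libraries, against 59.1% to 89.3% in Ppara-flox PBS libraries. Ccl2 alone held 32.7% to 41.5% of the sum in PPARα-deficient LPS libraries, against 9.03% to 30.7% in PPARα-deficient PBS libraries, and 32.4% to 44.6% in Ppara-flox LPS libraries, against 3.11% to 16.2% in Ppara-flox PBS libraries. No LPS library overlapped a PBS library of its genotype in either share.

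**Figure D3:**
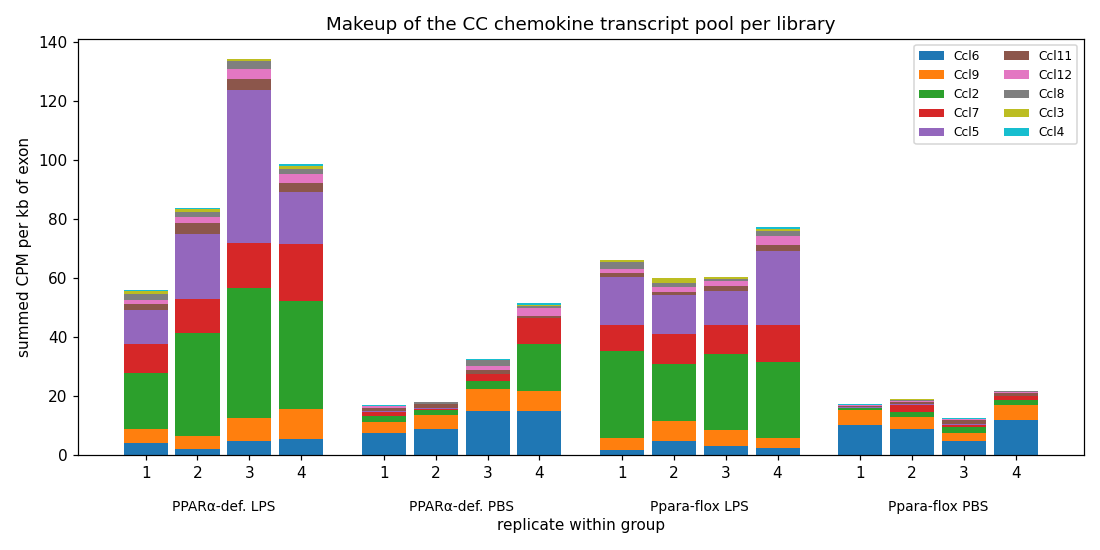
Stacked CPM per kb of exon (y axis) of the 10 ligands in each of the 16 libraries (x axis, replicates 1 to 4 within each group). Ccl6 and Ccl9 fill most of the bar in 7 of the 8 PBS libraries and Ccl2, Ccl5 and Ccl7 most of the bar in the LPS libraries; PPARα-deficient PBS replicate 4 is the exception.

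Between genotypes, 0 of the 10 ligands passed by edgeR after LPS or under PBS, and DESeq2 and limma-voom called 0 as well. Over all genes, 1.23% were called after LPS and 0.433% under PBS. The genotypes overlapped for all 10 ligands, where 5.32% of all genes did not overlap after LPS and 3.99% under PBS. After LPS, 1 ligand had an unadjusted edgeR p under 0.05 (9.13% of all genes), Ccl11, at 0.95 ± 0.36 higher in PPARα-deficient hearts (edgeR adjusted p = 0.362). The median of the 10 after LPS was 0.47, beside 0.01 over all genes, with Ccl5 at 0.64 ± 0.45, Ccl7 at 0.46 ± 0.68 and Ccl2 at 0.41 ± 0.55. Without PPARα-deficient LPS replicate 3 the Ccl5 difference was 0.05. Ccl6 and Ccl9 differed by 0.41 ± 0.35 and 0.48 ± 0.30 after LPS (edgeR adjusted p = 0.862 and 0.731).

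Under PBS the median over the 10 was 0.94, beside 0.00 over all genes, and 2 ligands had an unadjusted p under 0.05 (5.57% of all genes), Ccl2 (1.84 ± 0.59, edgeR adjusted p = 0.45) and Ccl12 (1.43 ± 0.54, edgeR adjusted p = 0.648). Ccl8 differed by 2.002 ± 0.96 and Ccl7 by 1.54 ± 0.74 without passing. A single library, PPARα-deficient PBS replicate 4, was the highest of its group for Ccl2, Ccl3, Ccl4, Ccl7 and Ccl12. Without it the differences were 0.51 for Ccl2, 0.22 for Ccl7 and 0.64 for Ccl12, and 2.14 for Ccl8. Ccl8 was highest in PPARα-deficient PBS replicate 3, and its difference was 0.88 without that library. In PPARα-deficient PBS replicate 4 the 12 neutrophil markers summed to 13.3 CPM, against 4.46 to 5.74 CPM in the other 3 of its group. They summed to 5.41 to 6.51 CPM in Ppara-flox PBS hearts. The 10 monocyte markers of PPARα-deficient PBS replicate 4 summed to 64.0 CPM, against 38.4 to 56.4 CPM in the other 3 of its group. Of the 12 neutrophil markers, Ly6g and Camp were at 0 counts in all 4 PPARα-deficient PBS libraries, and Ly6g and Ngp in all 4 Ppara-flox PBS libraries. Between genotypes under PBS 0 of the 11 neutrophil markers tested were called. An unadjusted edgeR p was under 0.05 for 2, which went in opposite directions. Ngp was higher in PPARα-deficient hearts (4.08) and Camp was lower (-5.24), each with 1 of the groups at 0 counts. Of the 10 monocyte markers 1 was called, Fcgr4, an Fc receptor gene, which was higher in PPARα-deficient hearts by 1.11 ± 0.21 with no overlap (edgeR adjusted p = 0.0159). The part of these cells in the Ccl2 values was not tested.

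The PBS libraries carried header numbers in a 9xx and a 10xx series, with 2 libraries of each genotype in each. Within the 9xx series the genotype difference was 0.59 for Ccl2, -0.34 for Ccl7 and 0.27 for Ccl12, and within the 10xx series, which holds the high library, it was 2.32, 2.33 and 2.01 in the same order. With the series as a block these were 1.48, 1.03 and 1.17, and 0 ligands passed within either series or with the block.

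The interaction test asked whether the LPS effect was higher or lower in PPARα-deficient than in Ppara-flox hearts. It called 0 ligands with edgeR, DESeq2 and limma-voom alike, and 0 had an unadjusted edgeR p under 0.05. Over all genes 0% were called by edgeR and 5.74% had an unadjusted p under 0.05. The largest differences were 1.599 ± 0.87 for Ccl5 and -1.42 ± 0.80 for Ccl2 (edgeR adjusted p = 0.919 and 0.924). That of Ccl2 was -0.09 without PPARα-deficient PBS replicate 4. Ccl6 differed by 0.04 ± 0.49. The calls of Ccl8 and Ccl12 in Ppara-flox hearts are therefore not shown to differ between genotypes (-1.40 ± 1.27 and -1.09 ± 0.74).

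**Figure D4:**
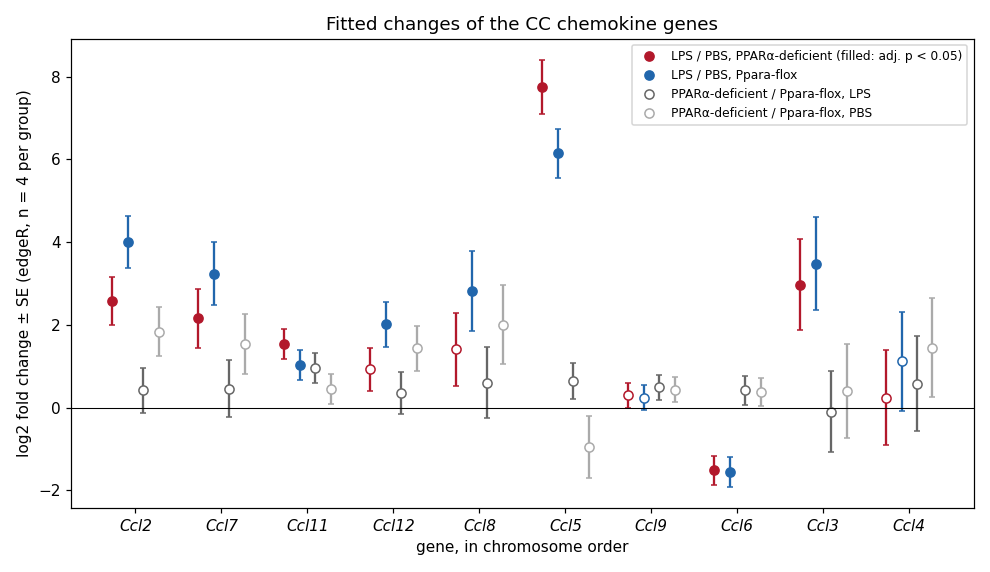
Log2 fold change ± SE of each ligand in 4 comparisons (y axis; x axis, genes in chromosome order; edgeR, n = 4 per group); filled points passed an adjusted p under 0.05. Filled points occur in the LPS comparisons alone, with Ccl6 the one below 0.

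The receptors gave a mixed picture. Of 11 CC receptor genes 5 passed the filter on low counts. In PPARα-deficient hearts 1 rose, Ccr7 (3.60, edgeR adjusted p = 0.00917), the receptor that guides dendritic cells and T cells to lymph nodes, and 1 fell, Ccr2 (edgeR adjusted p = 0.0325). In Ppara-flox hearts 2 rose, Ccr7 (3.49, edgeR adjusted p = 0.00952) and Ccr1 (1.36, edgeR adjusted p = 0.0356), and none fell. Ccr2, the receptor for Ccl2, Ccl7 and Ccl12, averaged 0.408 ± 0.148 CPM in PPARα-deficient LPS hearts, against 1.29 ± 0.797 CPM in PPARα-deficient PBS hearts, and 0.396 ± 0.282 CPM in Ppara-flox LPS hearts, against 1.11 ± 0.288 CPM in Ppara-flox PBS hearts (SD, n = 4 each). The change in Ppara-flox hearts was -1.48 (edgeR adjusted p = 0.0515). Ccr1, which binds Ccl6 and Ccl9 among others, averaged 4.25 ± 0.977 CPM in PPARα-deficient LPS hearts, against 2.10 ± 1.83 CPM in PPARα-deficient PBS hearts (edgeR adjusted p = 0.106). PPARα-deficient PBS replicate 4 stood at 4.65 CPM, within the range of its LPS counterparts (3.30 to 5.49 CPM). Replicates 1, 2 and 3 of that PBS group stood at 0.935, 0.619 and 2.185 CPM. The interaction did not pass for Ccr1 (-0.34) or Ccr2 (-0.175), each with an edgeR adjusted p of 0.999. Ccr10 did not pass in either genotype, and Ccr1l1, Ccr3, Ccr4, Ccr6, Ccr8 and Ccr9 were below the filter.

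Atypical receptors bind chemokines without the usual signalling, and many clear or transport them. All 5 examined passed the filter. Ackr3 rose in both genotypes, to 102.7 ± 6.76 CPM in PPARα-deficient LPS hearts, against 68.6 ± 12.1 CPM in PPARα-deficient PBS hearts, and to 99.5 ± 5.204 CPM in Ppara-flox LPS hearts, against 61.8 ± 9.05 CPM in Ppara-flox PBS hearts (SD, n = 4; edgeR adjusted p = 0.00126 and 0.000291). Ackr4, which scavenges Ccl19 and Ccl21, fell by 2.01 in PPARα-deficient and by 1.49 in Ppara-flox hearts (edgeR adjusted p = 0.000234 and 0.00231). Ackr1, which carries inflammatory chemokines across venules, passed in Ppara-flox hearts (3.10, edgeR adjusted p = 0.0145) and not in PPARα-deficient hearts (2.25, edgeR adjusted p = 0.0541). The interaction of Ackr1 was -0.85 ± 1.23 and did not pass (edgeR adjusted p = 0.999). Ccrl2 passed in PPARα-deficient hearts (1.67, edgeR adjusted p = 0.00266) and not in Ppara-flox hearts (0.54, edgeR adjusted p = 0.286), and its interaction did not pass (edgeR adjusted p = 0.879). Ackr2, the scavenger of inflammatory CC ligands, was at 2.41 ± 0.43 CPM in PPARα-deficient LPS hearts, against 1.76 ± 1.20 CPM in PPARα-deficient PBS hearts, and at 1.66 ± 0.847 CPM in Ppara-flox LPS hearts, against 1.51 ± 0.742 CPM in Ppara-flox PBS hearts, and did not pass.

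Other CC ligand genes also moved in both directions. Of 13 listed, 7 passed the filter, and in each genotype 3 rose and 2 fell with LPS (medians -0.02 in PPARα-deficient and 0.23 in Ppara-flox hearts). The risers were Ccl17, Ccl19 and Ccl22, which serve dendritic cell and T cell traffic. The 7 dendritic cell markers summed to 19.4 to 21.6 CPM in PPARα-deficient LPS hearts, against 30.1 to 35.4 CPM in PPARα-deficient PBS hearts. In Ppara-flox hearts they summed to 18.97 to 24.35 CPM after LPS, against 28.75 to 36.2 CPM after PBS. Of the 5 tested, 1 rose and 3 fell in PPARα-deficient hearts, and 1 rose and 2 fell in Ppara-flox hearts. Their part in these rises was not tested. Ccl19 averaged 2.92 ± 1.47 CPM in PPARα-deficient LPS hearts, against 0.137 ± 0.0941 CPM in PPARα-deficient PBS hearts, and 2.67 ± 1.11 CPM in Ppara-flox LPS hearts, against 0.0569 ± 0.0805 CPM in Ppara-flox PBS hearts (SD, n = 4 each). Ccl17 had 0 counts in all Ppara-flox PBS libraries and was at least 1.65-fold higher in Ppara-flox LPS hearts against a floor of 12 estimated counts per library, a bound that leaves the median where it is. Ccl24, an eotaxin-like CCR3 ligand, fell to 0.0662 ± 0.048 CPM in PPARα-deficient LPS hearts, against 0.774 ± 0.189 CPM in PPARα-deficient PBS hearts, and to 0.101 ± 0.0863 CPM in Ppara-flox LPS hearts, against 0.895 ± 0.398 CPM in Ppara-flox PBS hearts (edgeR adjusted p = 0.00264 and 0.0045). Ccl21a, a lymphatic ligand of CCR7 with near-identical copies in the mouse genome and therefore uncertain, fell by 1.295 in PPARα-deficient and by 1.34 in Ppara-flox hearts.

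Cell markers also changed with LPS, in both directions. The 14 resident macrophage markers summed to 217 to 298 CPM in PPARα-deficient LPS hearts, against 376 to 441 CPM in PPARα-deficient PBS hearts, and to 192 to 257 CPM in Ppara-flox LPS hearts, against 329 to 415 CPM in Ppara-flox PBS hearts. Of the 14, 7 fell and 1 rose in PPARα-deficient hearts, and 8 fell and 1 rose in Ppara-flox hearts. Among those that fell, the chemokine receptor gene Cx3cr1 changed by -3.86 in PPARα-deficient and -4.13 in Ppara-flox hearts, and Csf1r, which encodes the receptor of a macrophage growth factor, by -1.10 and -1.21 in the same order. Cd68 was the one that rose, by 0.71 and 0.54 in the same order (edgeR adjusted p = 0.00514 and 0.026). Adgre1, Lyve1, C1qa, C1qb and Mertk passed in neither genotype. None of the 14 was at 0 in any group. Their part in the fall of Ccl6 was not tested.

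The 10 monocyte markers, Ccr2 among them, summed to 95.3 to 148 CPM in PPARα-deficient LPS hearts, against 38.4 to 64.0 CPM in PPARα-deficient PBS hearts, and to 72.0 to 113 CPM in Ppara-flox LPS hearts, against 40.7 to 51.0 CPM in Ppara-flox PBS hearts. In PPARα-deficient hearts 7 rose and 2 fell, and in Ppara-flox hearts 7 rose and 1 fell. F13a1 fell in both (-0.84 in PPARα-deficient and -0.71 in Ppara-flox hearts). Ccr2 was the other that fell in PPARα-deficient hearts (-1.65). The 12 neutrophil markers summed to 63.1 to 97.4 CPM in PPARα-deficient LPS hearts, against 4.46 to 13.3 CPM in PPARα-deficient PBS hearts, and to 70.3 to 128 CPM in Ppara-flox LPS hearts, against 5.41 to 6.51 CPM in Ppara-flox PBS hearts. Of the 11 that passed the filter 10 rose in PPARα-deficient hearts and 9 in Ppara-flox hearts. The 9 fibroblast markers, which mark a known source of Ccl2, Ccl7 and Ccl11 in tissue, fell in 6 cases and rose in 1 in each genotype. They summed to 851 to 972 CPM in PPARα-deficient LPS hearts, against 879.5 to 1003 CPM in PPARα-deficient PBS hearts, and to 717 to 979 CPM in Ppara-flox LPS hearts, against 978 to 1082 CPM in Ppara-flox PBS hearts. The part of these cells in the rises of Ccl2, Ccl7 and Ccl11 was not tested.

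Of 16 genes for NF-kB, IRF and STAT factors and their feedback inhibitors, which control inducible chemokine genes, 13 rose in PPARα-deficient hearts and 12 in Ppara-flox hearts, and 0 fell (medians 1.66 and 1.61). Nfkbiz, an inducible NF-kB partner, rose by 3.15 ± 0.21 in PPARα-deficient and by 3.55 ± 0.21 in Ppara-flox hearts, and Nfkbia, the NF-kB inhibitor, by 2.33 ± 0.15 and 2.49 ± 0.15 in the same order.

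Genes most like a member were sought by the root mean square distance between centred log2 CPM profiles over the 16 libraries, among 10558 genes averaging at least 2 on that scale. Nearest to Ccl2 were Socs3 (0.55), a feedback inhibitor of cytokine receptors, Il33 (0.63), the gene of an alarmin cytokine, and Rnd1 (0.63). The nearest to Ccl6 were Prune2 (0.36), Gask1b (0.38) and Prss23 (0.41). Prune2 averaged 72.8 CPM in PPARα-deficient LPS hearts, 147 CPM in PPARα-deficient PBS hearts, 41.3 CPM in Ppara-flox LPS hearts and 127 CPM in Ppara-flox PBS hearts.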

How the data were processed

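Per the submitters' processing notes, fastp 0.23.2, HISAT, StringTie 1.3.3b and DESeq2 1.30.1 were used with GRCm38. The counting tool, annotation and strand setting are not given in the sources used here. The estimated counts were deposited by the authors per gene symbol, unscaled, 1 table per library. Low values piled up at multiples of 4 (10 of the 10 multiples up to 40 exceeded both neighbours). Of 55421 lines, 27 with symbols turned into dates were left out and 116 repeated symbols were summed, leaving 55278. Floors cover counting error only.

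Counts were fitted with R 4.3.3 and edgeR 4.0.16: filterByExpr on the 4 groups, TMM factors, glmQLFit with 4 group means over all 16 libraries and glmQLFTest with Benjamini-Hochberg adjustment over 18713 genes. The SE is the log2 fold change divided by the root of F. DESeq2 1.42.0 and limma 3.58.1 served as alternatives, with other factors, filters, thresholds, counts divided by 4, a replicate block and each library left out. The model was also run on counts simulated with its own fitted spread, which cannot show that it suits these libraries. Tables and figures used Python 3.11.15, pandas 2.3.3, numpy 2.4.6 and matplotlib 3.10.9. Exon lengths and positions came from GENCODE vM21 and promoters from RefSeq, both on GRCm38.

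The members and lists were chosen with earlier results of these data known. Named genes were the 10 members, Ppara, the measured CC and atypical receptors, up to 3 genes with the smallest adjusted p of each other list and the 3 most like Ccl2 and Ccl6. Not all of these are named, and 1 receptor is not reported here. Other genes named in the marker and ligand lists were chosen after their values were seen.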

Additional observations from a re-analysis of the deposited data

Results flagged for a closer look

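Among the 40 sets of 4 libraries (10 ligands in 4 groups), 3 had a highest library set apart from the other 3 by more than Dixon's critical share of the set's range. Chance flags about 1 in 20 sets. Ccl2 stood at 18.1 CPM in PPARα-deficient PBS replicate 4, with a gap of 0.913 of the range. Ccl3 stood at 1.21 CPM in Ppara-flox LPS replicate 2 (0.852 of the range), which is 84 estimated counts. Ccl4 stood at 0.258 CPM in Ppara-flox PBS replicate 3 (0.835 of the range), which is 20 estimated counts.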

How the results depend on the processing

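limma-voom and the header number series were chosen as alternatives after seeing these data. The number of ligands called with LPS in Ppara-flox hearts was 8, and 5 when at least 1 CPM in 8 libraries was required, which tests fewer genes, or when an adjusted p under 0.01 was required. Leaving out 1 library gave 6 to 7 calls there and 4 to 7 in PPARα-deficient hearts (6 with all libraries), where other settings gave 4 to 8. The number called was 0 between genotypes and for the interaction under each setting run. Of 966 single ligand values under alternatives, 905 kept direction and side of the threshold, 31 lost and 3 gained their call, and 27 changed sign, of which 0 were called. Within the 9xx header numbers the genotype difference under PBS was -0.19 for Ccl6, -0.34 for Ccl7 and -0.13 for Ccl9. Leaving out 1 library gave -0.17 to 1.06 for Ccl4 with LPS in PPARα-deficient hearts, -1.65 to 1.08 under PBS and -0.25 to 0.30 after LPS for Ccl3 between genotypes, and interactions of -1.18 to 1.55 for Ccl3, -0.14 to 0.37 for Ccl6, -1.60 to 0.23 for Ccl7 and -0.20 to 0.24 for Ccl9. The cause was not tested. With the replicate number as a block 8 ligands were called with LPS in Ppara-flox hearts and 6 in PPARα-deficient hearts. Same-numbered samples share only a number: the correlations of their deviations ranged from -0.203 to 0.162. The interaction cannot be fitted to 2 groups. Ccl3, Ccl4 and Ccl8, at 0 to 100 estimated counts per library, are limited by depth.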
